A study of Mus musculus with 16 samples.

Results

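The comparison described here sets splenic B cells of NOD.LT mice fed HAMS, a plain high-amylose starch diet, against B cells of NOD.LT mice fed the NP diet. It rests on 8 of the 16 RNA-seq libraries of the study, the 4 labelled HAMS 1, 4, 5 and 6 and the 4 labelled NP 1, 3, 4 and 5, and covers all 15021 genes that passed a filter on low counts. All mice were 15 weeks old and had eaten their diet freely for the last 5 weeks. The other 8 libraries come from mice fed HAMSA or HAMSB, the acetylated and butyrylated forms of the starch, with 4 libraries each. The labels also name a diet Gordons, which was taken to be the NP diet, and give the composition of none of the diets. B cells were enriched from spleen lymphocytes by negative selection, in which antibodies hold back the other cells. Cells missed by those antibodies stay in the preparation. The labels name neither the animal nor the batch behind a library number and speak both of 4 samples a diet and of triplicates. The p-values below therefore measure the spread between these libraries.

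NOD mice develop autoimmune diabetes, and B cells take part in the disease as antigen-presenting cells. Starch rich in amylose resists digestion in the small intestine and is fermented by colonic bacteria to acetate, propionate and butyrate. A resting B cell keeps the RNA of immediate early genes low and raises it within minutes of a signal through its antigen receptor, a cytokine or cyclic AMP. Heat shock factors raise the RNA of cytosolic chaperones when unfolded protein accumulates, and the unfolded protein response does the same for chaperones of the endoplasmic reticulum.

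The 4 NP libraries held 31707731 to 42752976 reads assigned to genes and the 4 HAMS libraries 31826691 to 37929476. Reads outside annotated exons were 13.95 to 15.54% of the total in NP and 11.15 to 16.36% in HAMS, and multimapping reads 14.72 to 17.41% and 16.05 to 20.92%. Levels are given in counts-per-million units (CPM), with library sizes scaled by the trimmed mean of M values (TMM). The labelled cell type was borne out by its markers: the summed CPM of 14 B cell markers was 39006 to 45264 in NP and 37534 to 51088 in HAMS, and 1 of the 14, Cd22, passed the test between the diets. HAMS 5 and 6 stood apart from HAMS 1 and 4 on the first principal component of all 16 libraries (31.1% of the variance), at −44.9 and −38.5 against 7.15 and 0.827, and the NP libraries ran from −23.7 to −0.221. Libraries numbered 5 or 6 lay lowest in each of the 4 diets: NP 5 at −23.7, close to NP 4 at −20.1, HAMSA 6 at 1.07 against 25.9 to 64.9, and HAMSB 5 and 6 at −42.5 and −32.1 against 20.5 and 39.5. The labels do not say what a number marks. Of the 4 HAMS libraries 2 are numbered 5 or 6 and of the 4 NP libraries 1, and the part of this in the comparison was not tested beyond the fits by number given below.

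Of 15021 genes tested, 650 (4.33%) passed at an adjusted p below 0.05 between HAMS and NP. Of these, 341 (2.27% of the genes tested) were higher and 309 (2.06%) lower in HAMS. The median log2 fold change over all genes was 0.0124, the median size among the genes that passed 0.717, and the biological coefficient of variation 22.1%. The split between directions depended on the scaling. With library totals in place of TMM, 798 genes passed and 28.2% of them were higher in HAMS, against 52.5% with TMM. The tests were made with edgeR's quasi-likelihood F-test over all 16 libraries with Benjamini-Hochberg adjustment across every gene tested. Below, log2FC is the log2 fold change, HAMS minus NP, given ± its standard error. Single libraries also weighed on the count, which was 235 without NP 3, 246 without NP 4, 270 without HAMS 6, 309 without HAMS 4 and 403 without NP 5. Among libraries numbered 1 to 4 the contrast called 1571 genes, and among those numbered 5 and 6, with 1 NP library, 45.

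**Figure D1:**
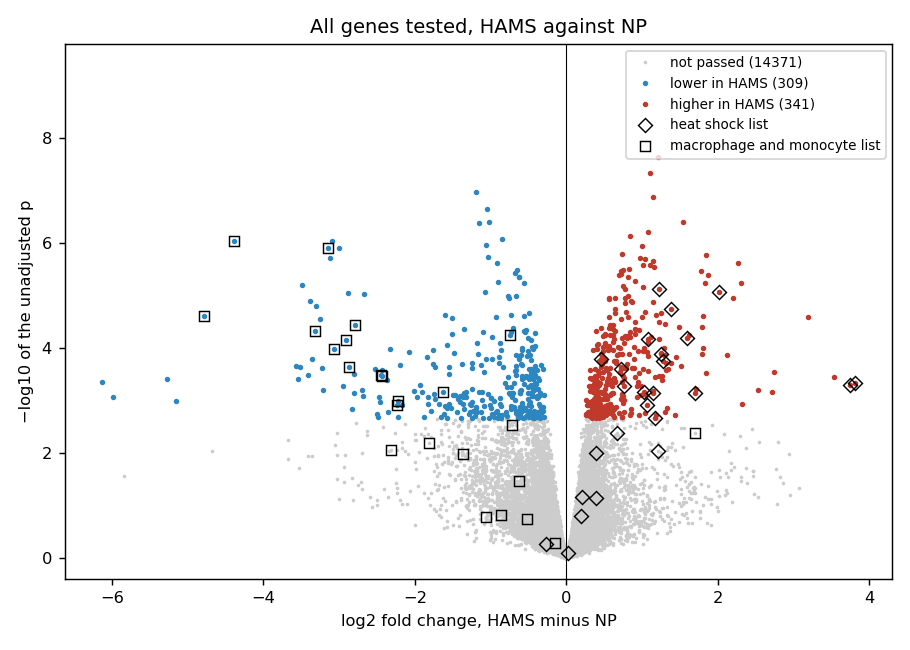
Each point is 1 of 15021 genes, by log2 fold change (HAMS minus NP, x axis) and −log10 of the unadjusted p (y axis); red points are the 341 genes higher and blue points the 309 genes lower in HAMS. Diamonds mark the heat shock list, which lies almost wholly to the right of 0, and squares the macrophage and monocyte list, which lies almost wholly to the left.

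Chaperones of the heat shock response made up the group with the highest share of members called. Of 25 tested genes on the heat shock list, 17 rose and 0 fell in HAMS, against 2.27% of all genes called higher. The median log2 fold change over the 25 was 1.08. Levels in the 4 HAMS libraries lay above all 4 NP libraries for 18 of the 25, against 6.06% of all genes. Among genes that passed, had a mean level of at least 1 on the log2 CPM scale and did not overlap between the diets, the largest rises were those of Hspa1a and Hspa1b, the inducible HSP70 chaperones, which bind unfolded protein. These genes are neighbours and near-identical copies. Multimapping reads were left unassigned in the deposited counts, so both levels rest on the reads that tell the copies apart and are uncertain.

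Sequences before the start of 4 of these genes are shown because heat shock factor binds inverted repeats of GAA. They belong to 4 of the 8 list members with such a repeat within 250 bases of a RefSeq start, the others being Fkbp4, which also rose, and Dnajb6, Hspb1 and Hspe1, which did not pass. They come from RefSeq (GRCm38.p6), are written 5′ to 3′ on the gene's strand, and capitals mark GAANNTTC, searched on both strands:
Hspa1a: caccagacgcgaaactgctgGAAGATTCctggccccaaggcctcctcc
Hspa1b: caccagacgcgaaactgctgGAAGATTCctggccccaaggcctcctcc
Dnaja1: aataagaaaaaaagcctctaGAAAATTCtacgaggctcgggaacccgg
Hspd1: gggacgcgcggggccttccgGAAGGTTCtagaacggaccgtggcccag
The stretches lie at chr17:34972233-34972280, minus strand for Hspa1a, chr17:34959315-34959362, minus strand for Hspa1b, chr4:40722324-40722371, plus strand for Dnaja1 and chr1:55088044-55088091, minus strand for Hspd1. The motif begins 104, 104, 124 and 139 bases before the start of a RefSeq transcript. For Dnaja1 and Hspd1 that start lies inside the longer gene span of M21, so their stretches lie within the gene's coordinates given below. The 250 bases before Hspa1a and Hspa1b are identical at 247 positions. Of the 25 list members, 21 had an entry, with 28 windows, and 9 windows (32.1%) held the motif, against 6.69% of all 32851 promoter windows of that length. Among the 17 that rose, 15 had an entry and 5 of their 21 windows held it.

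Hspa1a stood at 0.8901, 0.3704, 0.839 and 0.536 CPM in NP 1, 3, 4 and 5 and 2.78, 19.05, 6.11 and 8.98 CPM in HAMS 1, 4, 5 and 6. All 4 HAMS libraries exceeded every NP library, HAMS 4 by most and HAMS 1 by least. The fitted rise was 14.03-fold (log2FC 3.81 ± 0.87, adjusted p = 0.021), and without HAMS 4 the log2FC was 3.17. GENCODE M21 (GRCm38) places the gene at chr17:34969190-34972156, minus strand, and the coordinates of other genes below come from the same annotation. For Hspa1b the levels were 1.72, 0.741, 0.6499 and 1.52 CPM in NP 1, 3, 4 and 5 and 4.18, 32.01, 10.5 and 15.6 CPM in HAMS 1, 4, 5 and 6, with the same order of HAMS libraries (log2FC 3.75 ± 0.86, adjusted p = 0.022), and without HAMS 4 the log2FC was 3.12. Both calls depended on single libraries, and the adjusted p passed 0.05 for Hspa1a without NP 3, 4 or 5 or HAMS 4 (adjusted p = 0.0639 to 0.0882). It did so for Hspa1b without NP 3, 4 or 5 or HAMS 4 or 6 (adjusted p = 0.0509 to 0.0895).

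The HSP40 co-chaperones, which hand unfolded protein to HSP70, rose with more even values. Dnaja1 measured 99.8, 62.9, 62.7 and 70.4 CPM in NP 1, 3, 4 and 5 and 202, 355, 303 and 337 CPM in HAMS 1, 4, 5 and 6, a 4.04-fold difference (log2FC 2.02 ± 0.31, adjusted p = 0.00244; chr4:40722150-40737149, plus strand). HAMS 1 was the lowest HAMS library and NP 1 the highest NP library, and the diets did not overlap. Dnajb1 ran from 55.2 to 74.1 CPM in NP and 150.2 to 275 CPM in HAMS (log2FC 1.597 ± 0.30, adjusted p = 0.00723). Hspd1, the mitochondrial HSP60, stood at 136, 109, 111 and 112 CPM in NP 1, 3, 4 and 5 and 208, 363, 252 and 272 CPM in HAMS 1, 4, 5 and 6 and had the smallest p of the list (log2FC 1.23 ± 0.19, adjusted p = 0.00221; chr1:55077835-55088243, minus strand). Cacybp, which binds calcyclin and the ubiquitin ligase Siah, ran from 42.6 to 63.7 CPM in NP and 95.1 to 168 CPM in HAMS (log2FC 1.38 ± 0.23, adjusted p = 0.00383). These 4 genes kept an adjusted p below 0.05 in each of the 8 omissions of a single library.

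The remaining members that rose were Hspa8 (1.08 ± 0.20), Stip1 (1.25 ± 0.25), Hspa4 (0.46 ± 0.09), Chordc1 (1.27 ± 0.26), Fkbp4 (0.72 ± 0.15), Ahsa1 (0.76 ± 0.18), Dnajb4 (1.02 ± 0.24), Hsph1 (1.7 ± 0.41), Bag3 (1.15 ± 0.27), Ahsa2 (1.07 ± 0.27) and Hsp90aa1 (1.17 ± 0.32), in log2 fold change ± SE. Stip1 joins HSP70 to HSP90, and Ahsa1 speeds the HSP90 ATPase. Hsph1, an HSP70 exchange factor, measured 249, 168, 167 and 139 CPM in NP 1, 3, 4 and 5 and 297, 791, 567 and 694 CPM in HAMS 1, 4, 5 and 6, and HAMS 1 lay well below the other HAMS libraries. The 8 members that did not pass included the constitutive Hsp90ab1 (log2FC 0.398 ± 0.21, adjusted p = 0.313) and the small chaperone Hspb1 (log2FC −0.27 ± 0.42, adjusted p = 0.770). They also included the heat shock factors Hsf1 (log2FC 0.03 ± 0.10, adjusted p = 0.918) and Hsf2 (log2FC 0.19 ± 0.13, adjusted p = 0.448). Summed over the list, NP libraries held 3995 to 4681 CPM, and HAMS 1, 4, 5 and 6 held 5284, 9548, 6721 and 8216 CPM. Hsph1 did not pass without NP 3, 4 or 5 or HAMS 4 or 6 (adjusted p = 0.0768 to 0.0953). The number of members called fell to 6 without NP 3 or without NP 4, 7 without HAMS 4, 9 without NP 5 and 10 without HAMS 6. The list's median log2 fold change was 0.94 within libraries numbered 1 to 4, and 1.11 within those numbered 5 and 6, where 0 members passed.

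A subset of immediate early genes rose, and their calls depended less on single libraries. Of 28 tested members, 9 rose and 0 fell, against 2.27% of all genes called higher, and the median log2 fold change was 0.62. Members encoding phosphatases, nuclear receptors and antiproliferative factors were among those that rose, while Egr1 (log2FC 0.19 ± 0.20, adjusted p = 0.635) and Myc (log2FC −0.22 ± 0.14, adjusted p = 0.419) did not pass. Fos (1.08 to 1.56 CPM in NP and 2.6 to 6.36 CPM in HAMS; log2FC 1.7 ± 0.71, adjusted p = 0.198) and Fosb (1.56 to 2.17 CPM in NP and 2.66 to 6.74 CPM in HAMS; log2FC 1.15 ± 0.45, adjusted p = 0.166), subunits of the AP-1 factor, did not pass either, although the diets did not overlap. The same held for Jun, by a narrow margin (20.1 to 24.2 CPM in NP and 24.2 to 47.6 CPM in HAMS; log2FC 0.71 ± 0.30, adjusted p = 0.207). Egr3 lay lower in HAMS, without passing (32.9 to 43.4 CPM in NP and 20.9 to 29.8 CPM in HAMS; log2FC −0.62 ± 0.21, adjusted p = 0.112). The number of members called was 9 or 10 in each omission of a single library, and 2 within libraries numbered 5 and 6.

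Ier2, a nuclear protein induced early by growth signals, had the smallest p of the named genes at 60.03, 61.1, 55.3 and 57.99 CPM in NP 1, 3, 4 and 5 and 119.9, 149, 115 and 157 CPM in HAMS 1, 4, 5 and 6. NP libraries kept within a narrow band and the lowest HAMS library lay well above it (log2FC 1.21 ± 0.12, adjusted p = 3.35e-04; GRCm38 chr8:84661331-84662852, minus strand). Nr4a1, an orphan nuclear receptor and a common reporter of antigen receptor signalling, measured 33.2, 32.2, 27.4 and 32.8 CPM in NP 1, 3, 4 and 5 and 69.4, 112, 73.4 and 111 CPM in HAMS 1, 4, 5 and 6 (log2FC 1.54 ± 0.19, adjusted p = 7.62e-04; chr15:101254269-101274795, plus strand). Its relative Nr4a3 measured 4.76, 3.51, 4.55 and 3.498 CPM in NP 1, 3, 4 and 5 and 7.96, 16.6, 16.6 and 15.9 CPM in HAMS 1, 4, 5 and 6 (log2FC 1.805 ± 0.31, adjusted p = 0.00442), with HAMS 1 lower than the other HAMS libraries. Btg2, an antiproliferative factor, ran from 208 to 244 CPM in NP and 327 to 407 CPM in HAMS (log2FC 0.73 ± 0.10, adjusted p = 0.00132). Junb, an AP-1 subunit, ran from 58.4 to 69.1 CPM in NP and 87.8 to 117 CPM in HAMS (log2FC 0.72 ± 0.12, adjusted p = 0.00466).

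Genes that the factor CREB induces after cyclic AMP formed an overlapping list. Of its 16 tested members 6 rose and 0 fell, against 2.27% of all genes called higher (median log2 fold change 0.75). Nr4a1, Nr4a3, Dusp1, Crem, Sik1 and Per1 were the 6. CREB binds the palindrome TGACGTCA and the shorter TGACG, and the promoters of 4 genes of the immediate early list are shown so that their sites can be read beside their rise. Capitals mark TGACGTCA in Dusp1 and Btg2, and TGACG or its reverse complement CGTCA in Nr4a1 and Nr4a3, from RefSeq (GRCm38.p6), 5′ to 3′ on the gene's strand:
Dusp1: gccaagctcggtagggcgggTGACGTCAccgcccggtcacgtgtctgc
Btg2: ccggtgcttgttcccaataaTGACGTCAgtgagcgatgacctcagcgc
Nr4a1: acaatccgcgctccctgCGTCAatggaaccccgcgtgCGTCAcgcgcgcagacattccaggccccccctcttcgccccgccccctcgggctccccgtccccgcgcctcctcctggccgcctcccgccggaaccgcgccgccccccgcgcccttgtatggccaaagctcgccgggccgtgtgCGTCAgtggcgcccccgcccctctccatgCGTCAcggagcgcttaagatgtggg
Nr4a3: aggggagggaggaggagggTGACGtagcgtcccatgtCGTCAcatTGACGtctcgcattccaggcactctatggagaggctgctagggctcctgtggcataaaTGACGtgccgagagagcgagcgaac
These stretches lie at chr17:26508588-26508635, minus strand for Dusp1, chr1:134079294-134079341, minus strand for Btg2, chr15:101266596-101266830, plus strand for Nr4a1 and chr4:48045055-48045182, plus strand for Nr4a3. The whole palindrome begins 143 bases before the start of the RefSeq transcript of Dusp1 and 166 before that of Btg2. The stretches of Dusp1 and Nr4a1, and part of that of Nr4a3, lie inside the longer gene spans of M21. The palindrome was present in 1.55% of all promoter windows. It was present in 1 of the 16 windows of the CREB list (6.25%), that of Dusp1. On the immediate early list it was in 2 of 27 windows (7.41%), those of Btg2 and Dusp1. Nr4a1 and Nr4a3 each held 4 copies of the short site, which was present in 17.8% of all windows (a whole palindrome counts as a match of the short site on both strands). It was present in 10 of the 16 windows of the whole CREB list (62.5%), in 15 of the 27 of the immediate early list (55.6%), and in 5 of the 5 windows of the 4 CREB targets that rose and had an entry. A match describes the sequence and is no evidence of binding.

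Crem, whose products both activate and repress cyclic AMP response genes, measured 15.96, 10.9, 13.1 and 12.5 CPM in NP 1, 3, 4 and 5 and 25.8, 71.6, 67.8 and 86.7 CPM in HAMS 1, 4, 5 and 6. HAMS 1 stood nearest to NP, and the other HAMS libraries were several times higher (4.802-fold; log2FC 2.26 ± 0.32, adjusted p = 0.00139). Sik1, a kinase that holds back CREB coactivators, measured 130.1, 76.05, 113 and 131 CPM in NP 1, 3, 4 and 5 and 280.5, 329.7, 347 and 421 CPM in HAMS 1, 4, 5 and 6, with no overlap between the diets (log2FC 1.61 ± 0.30, adjusted p = 0.00682; GRCm38 chr17:31844250-31855804, minus strand). Per1, a clock gene that CREB and the glucocorticoid receptor both induce, ran from 87.9 to 97.6 CPM in NP and 119.9 to 195 CPM in HAMS (log2FC 0.73 ± 0.20, adjusted p = 0.049). Per1 was the least secure of the 6 and did not pass without NP 1, 3, 4 or 5 or HAMS 4, 5 or 6 (adjusted p = 0.0813 to 0.164). Members that did not pass included Fosb, Nr4a2 (log2FC 1.38 ± 0.51, adjusted p = 0.148) and the phosphodiesterase Pde4b (log2FC 0.29 ± 0.17, adjusted p = 0.374).

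MAP kinase phosphatases end the signals that induce immediate early genes. Of 12 tested members 6 rose and 0 fell, against 2.27% of all genes called higher (median log2 fold change 0.73). Of those that rose, Dusp1, Dusp2 and Dusp5 are also on the immediate early list and were counted there. Dusp1, which acts in the nucleus on JNK and p38, measured 14.8, 10.7, 13.3 and 20.1 CPM in NP 1, 3, 4 and 5 and 43.1, 45.9, 56.6 and 66.5 CPM in HAMS 1, 4, 5 and 6 (3.596-fold; log2FC 1.85 ± 0.25, adjusted p = 0.00132; chr17:26505590-26562128, minus strand). Dusp2 ran from 117 to 125 CPM in NP and 163 to 239 CPM in HAMS (log2FC 0.72 ± 0.10, adjusted p = 0.00149). The ERK phosphatase Dusp5 ran from 7.76 to 13.7 CPM in NP and 22.3 to 30.7 CPM in HAMS (log2FC 1.3 ± 0.23, adjusted p = 0.00545). Dusp3 (1.08 ± 0.22), Dusp10 (0.75 ± 0.16) and Dusp7 (0.73 ± 0.18) completed the group, in log2 fold change ± SE. Dusp6, the cytoplasmic ERK phosphatase, did not pass (log2FC 0.24 ± 0.14, adjusted p = 0.356).

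**Figure D2:**
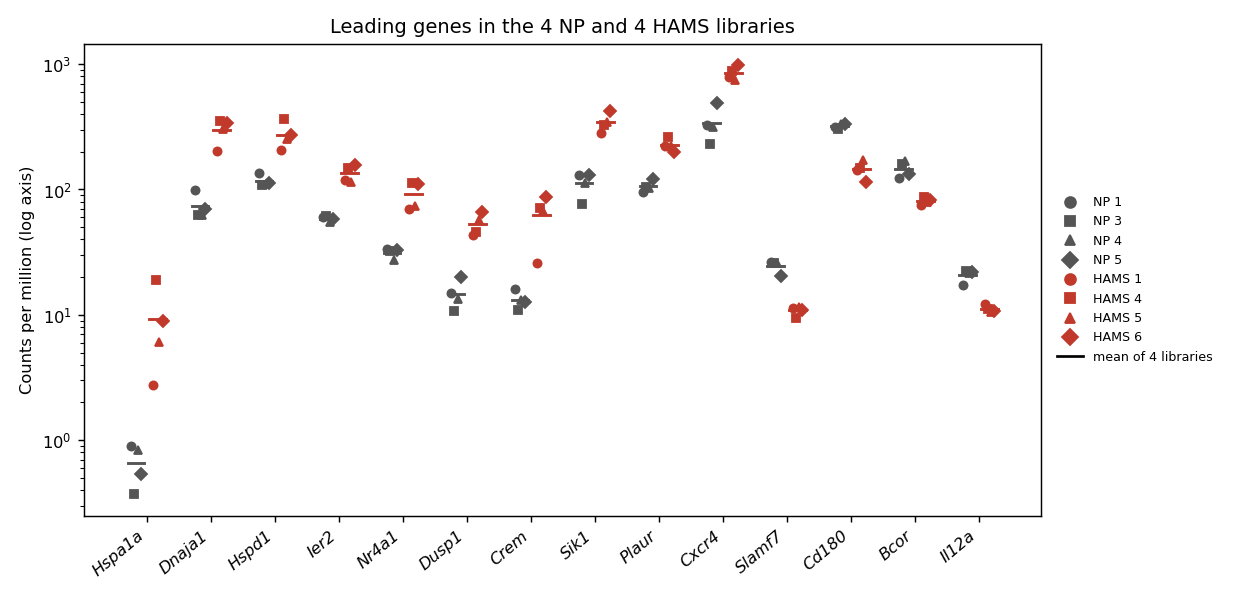
Level of 14 genes in CPM (log axis) in each of the 4 NP libraries (grey) and 4 HAMS libraries (red), 1 symbol a library, with a bar at the mean of 4. The diets do not overlap for any of the 14 genes. HAMS 1 (red circle) is the lowest HAMS library for Hspa1a, Dnaja1, Hspd1, Nr4a1, Dusp1, Crem, Sik1 and Bcor.

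Surface proteins of activated and migrating B cells changed in part. On the costimulation list 4 of 18 members rose and 1 fell, against 2.27% and 2.06% of all genes (median log2 fold change 0.14). Plaur, the urokinase receptor, measured 95.5, 104, 104 and 121 CPM in NP 1, 3, 4 and 5 and 224, 264, 222 and 199 CPM in HAMS 1, 4, 5 and 6 (2.14-fold; log2FC 1.099 ± 0.11, adjusted p = 3.44e-04; GRCm38 chr7:24462484-24475968, plus strand). Cd69, an early activation antigen that keeps lymphocytes in tissue, measured 41.7, 26.9, 32.1 and 36.2 CPM in NP 1, 3, 4 and 5 and 75.3, 66.3, 68.4 and 94.8 CPM in HAMS 1, 4, 5 and 6 (log2FC 1.16 ± 0.16, adjusted p = 0.00144). Cd83, which steadies MHC class II at the surface, ran from 193 to 262 CPM in NP and 334 to 538 CPM in HAMS (log2FC 0.96 ± 0.17, adjusted p = 0.00621). Tnfsf9, the ligand of 4-1BB, ran from 1.58 to 2.495 CPM in NP and 3.77 to 7.04 CPM in HAMS (log2FC 1.52 ± 0.32, adjusted p = 0.014). Cd274, the inhibitory ligand PD-L1, fell (78.3 to 94.4 CPM in NP and 47.8 to 73.8 CPM in HAMS; log2FC −0.495 ± 0.13, adjusted p = 0.036). The costimulatory ligands Cd86 (log2FC 0.43 ± 0.16, adjusted p = 0.142) and Cd80 (log2FC −0.097 ± 0.24, adjusted p = 0.866) did not pass. Tnfsf9 lost its call without NP 3 or 4 or HAMS 4 or 6 (adjusted p = 0.0509 to 0.0619). Cd274 lost it without NP 3, 4 or 5 or HAMS 4 or 6 (adjusted p = 0.0911 to 0.115).

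Of 18 homing genes 4 rose and 0 fell, against 2.27% of all genes called higher (median log2 fold change 0.05). Ccr7, the receptor that draws lymphocytes towards the T cell zone, measured 142, 139.8, 129 and 160.3 CPM in NP 1, 3, 4 and 5 and 265, 302, 198 and 259 CPM in HAMS 1, 4, 5 and 6 (log2FC 0.84 ± 0.11, adjusted p = 0.00105; chr11:99144196-99155077, minus strand). Cxcr4, the receptor for the bone marrow and plasma cell niche chemokine Cxcl12, measured 327, 232, 313 and 486 CPM in NP 1, 3, 4 and 5 and 788, 877, 754 and 978 CPM in HAMS 1, 4, 5 and 6 (2.502-fold; log2FC 1.32 ± 0.27, adjusted p = 0.013). NP 5 was the NP library nearest to HAMS for both. Itgb7, an integrin chain for entry into gut tissue, ran from 185 to 205 CPM in NP and 236 to 354 CPM in HAMS (log2FC 0.596 ± 0.13, adjusted p = 0.019). Gpr183, an oxysterol receptor that guides B cells within follicles, ran from 95.4 to 108 CPM in NP and 117 to 153 CPM in HAMS (log2FC 0.38 ± 0.09, adjusted p = 0.023). The follicle receptor Cxcr5 (log2FC 0.06 ± 0.11, adjusted p = 0.799) and Ccr6 (log2FC −0.12 ± 0.26, adjusted p = 0.833) did not pass. Cxcr4 lost its call without NP 3 or 4 (adjusted p = 0.0531 to 0.0578). Itgb7 lost it without NP 3 or 4 or HAMS 4 or 6 (adjusted p = 0.0573 to 0.0763), and Gpr183 without NP 1, 3, 4 or 5 or HAMS 4 or 6 (adjusted p = 0.0515 to 0.0986).

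Pmepa1, Tgif1 and Smad7 rose among 16 tested genes of the TGF-beta pathway and 0 fell, against 2.27% of all genes called higher. The median log2 fold change was 0.16. All 3 genes that rose restrain that pathway. Pmepa1 measured 24.5, 16.4, 14.3 and 22.7 CPM in NP 1, 3, 4 and 5 and 43.5, 35.2, 49.3 and 39.5 CPM in HAMS 1, 4, 5 and 6 (log2FC 1.11 ± 0.16, adjusted p = 0.00141). Tgif1 ran from 40.5 to 50.6 CPM in NP and 82.1 to 116 CPM in HAMS (log2FC 1.19 ± 0.20, adjusted p = 0.00442). Smad7 ran from 32.4 to 40.9 CPM in NP and 52.8 to 72.7 CPM in HAMS (log2FC 0.84 ± 0.15, adjusted p = 0.00642). The ligand Tgfb1 (log2FC 0.26 ± 0.12, adjusted p = 0.257) and the receptors Tgfbr1 (log2FC 0.12 ± 0.19, adjusted p = 0.776) and Tgfbr2 (log2FC 0.16 ± 0.16, adjusted p = 0.620) did not pass.

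Of 15 genes of the glucocorticoid response, Dusp1, Tsc22d3, Cxcr4 and Per1 rose and Zbtb16 fell, with a median log2 fold change of 0.67. Among all genes 2.27% were called higher and 2.06% lower. Dusp1, Cxcr4 and Per1 were already counted on lists above. Tsc22d3, which encodes GILZ, measured 356, 209, 297 and 417 CPM in NP 1, 3, 4 and 5 and 760.1, 795, 688 and 887 CPM in HAMS 1, 4, 5 and 6 (log2FC 1.29 ± 0.25, adjusted p = 0.00936). Zbtb16, the factor PLZF, is induced by glucocorticoids and also marks innate-like T cells, and it measured 3.44, 2.74, 1.11 and 4.76 CPM in NP 1, 3, 4 and 5 and 0.0539, 0.254, 0.497 and 0.258 CPM in HAMS 1, 4, 5 and 6 (log2FC −3.49 ± 0.53, adjusted p = 0.00205). Fkbp5 (log2FC −0.44 ± 0.34, adjusted p = 0.519) and the receptor Nr3c1 (log2FC 0.67 ± 0.24, adjusted p = 0.133) did not pass. The list's median was 0.219 within libraries numbered 1 to 4 and 0.765 within those numbered 5 and 6.

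Some genes of the unfolded protein response rose, by smaller amounts. Of 27 tested members 9 rose and 0 fell, against 2.27% of all genes called higher, with a median log2 fold change of 0.29. Trib3, a pseudokinase induced by Ddit3 and Atf4, measured 8.04, 7.43, 8.45 and 9.14 CPM in NP 1, 3, 4 and 5 and 15.6, 16.3, 12.5 and 14.5 CPM in HAMS 1, 4, 5 and 6 (log2FC 0.83 ± 0.12, adjusted p = 0.00149). Herpud1, which serves degradation of misfolded protein, ran from 159 to 181 CPM in NP and 223 to 277 CPM in HAMS (log2FC 0.57 ± 0.09, adjusted p = 0.00268). Ddit3, the factor CHOP, ran from 22.4 to 26.2 CPM in NP and 31.9 to 41.9 CPM in HAMS (log2FC 0.62 ± 0.11, adjusted p = 0.00668). Hspa5, the chaperone BiP, ran from 582 to 655 CPM in NP and 791 to 1029 CPM in HAMS (log2FC 0.57 ± 0.12, adjusted p = 0.015) and did not pass without NP 3, 4 or 5 or HAMS 4 (adjusted p = 0.0531 to 0.0612). Manf, Creld2, Xbp1, Hsp90b1 and Dnajb9 also rose, by 0.37 to 0.84 on the log2 scale. Atf4 (log2FC 0.43 ± 0.14, adjusted p = 0.100), Calr (log2FC 0.18 ± 0.09, adjusted p = 0.291) and Edem1 (log2FC −0.05 ± 0.10, adjusted p = 0.801) did not pass. CCACG, part of the endoplasmic reticulum stress element, was present on either strand in 17 of the 25 promoter windows of the list (68.0%) and in 28.3% of all windows. The number called was 3 without NP 3, NP 4, NP 5 or HAMS 4, 5 without HAMS 6, and 5 with library totals. NP 1 had the highest summed level of the NP libraries (5804 CPM).

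A smaller number of B cell receptors, regulators and cytokines fell. Slamf7, an adhesion receptor of the SLAM family, measured 26.6, 26.02, 25.8 and 20.4 CPM in NP 1, 3, 4 and 5 and 11.4, 9.51, 11.6 and 10.9 CPM in HAMS 1, 4, 5 and 6 and was lower in every HAMS library than in any NP library (log2FC −1.19 ± 0.13, adjusted p = 4.83e-04; GRCm38 chr1:171632403-171653035, minus strand). Slamf1, in the same gene cluster, ran from 30.7 to 39.6 CPM in NP and 17.4 to 23.7 CPM in HAMS (log2FC −0.77 ± 0.12, adjusted p = 0.00266). These were the 2 of 10 tested family members that fell, against 2.06% of all genes called lower, and 0 rose (median log2 fold change −0.10). Cd180, a relative of Toll-like receptors that modulates lipopolysaccharide responses in B cells, measured 313, 302, 336 and 331 CPM in NP 1, 3, 4 and 5 and 143, 149, 172 and 114 CPM in HAMS 1, 4, 5 and 6 (log2FC −1.15 ± 0.14, adjusted p = 7.62e-04; chr13:102693558-102739629, plus strand). It was the single gene to pass among 18 of the Toll-like receptor list, on which Tlr9 (log2FC −0.54 ± 0.15, adjusted p = 0.057) and Cd180's partner Ly86 (log2FC 0.04 ± 0.17, adjusted p = 0.926) did not pass.

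Bcor, a corepressor of Bcl6, measured 123, 161, 169 and 133 CPM in NP 1, 3, 4 and 5 and 75.05, 87.3, 79.3 and 82.8 CPM in HAMS 1, 4, 5 and 6 (log2FC −0.85 ± 0.11, adjusted p = 0.00105). Il12a, the subunit shared by interleukin 12 and interleukin 35, measured 17.2, 22.6, 21.6 and 22.1 CPM in NP 1, 3, 4 and 5 and 12.2, 11.2, 10.6 and 10.7 CPM in HAMS 1, 4, 5 and 6 (log2FC −0.899 ± 0.13, adjusted p = 0.00187). With Cd274 and Havcr1 (13.4 to 14.7 CPM in NP and 5.91 to 12.3 CPM in HAMS; log2FC −0.67 ± 0.18, adjusted p = 0.045) it made 3 falls and 0 rises among 15 genes of the regulatory B cell list, whose median was 0.16. The share of all genes called lower was 2.06%. Il10 did not pass (log2FC 1.29 ± 0.68, adjusted p = 0.318). Il4i1, an amino acid oxidase that interleukin 4 induces, ran from 269.7 to 316 CPM in NP and 136 to 190.5 CPM in HAMS (log2FC −0.87 ± 0.17, adjusted p = 0.00835). Slamf7, Slamf1, Cd180, Bcor, Il12a and Il4i1 kept an adjusted p below 0.05 in each of the 8 omissions, and Havcr1 lost it without NP 1, 3, 4 or 5 or HAMS 4, 5 or 6 (adjusted p = 0.0599 to 0.127).

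Of 27 tested B cell receptor signalling genes, 0 rose and Cd22 and Nfatc1 fell (median log2 fold change −0.03), against 4.33% of all genes called in either direction. Cd22, an inhibitory coreceptor for sialic acid ligands, measured 2054, 2569, 2584 and 2604 CPM in NP 1, 3, 4 and 5 and 1826, 1802, 1862 and 1664 CPM in HAMS 1, 4, 5 and 6, with NP 1 well below the other NP libraries (log2FC −0.46 ± 0.10, adjusted p = 0.018). Nfatc1, a calcium-dependent transcription factor, ran from 262 to 291 CPM in NP and 202 to 234 CPM in HAMS (log2FC −0.31 ± 0.08, adjusted p = 0.043). Cd22 did not pass without NP 3, 4 or 5 or HAMS 6 (adjusted p = 0.0551 to 0.0745). Nfatc1 did not without NP 1, 3, 4 or 5 or HAMS 1, 4, 5 or 6 (adjusted p = 0.0519 to 0.149). Fcrl5 (134 to 159 CPM in NP and 50.1 to 112 CPM in HAMS; log2FC −0.99 ± 0.24, adjusted p = 0.030) and Zeb2 (36.9 to 43.4 CPM in NP and 22.2 to 35.3 CPM in HAMS; log2FC −0.63 ± 0.17, adjusted p = 0.04995) fell among 12 genes of age-associated B cells. Neither passed in 7 of the 8 omissions (adjusted p up to 0.102 and 0.154).

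Receptors for BAFF moved in opposite directions. Tnfrsf13c, the BAFF receptor that mature B cells need to survive, rose (364, 325, 338 and 399.7 CPM in NP 1, 3, 4 and 5 and 519.5, 731, 568 and 712 CPM in HAMS 1, 4, 5 and 6; log2FC 0.83 ± 0.17, adjusted p = 0.010). Tnfrsf13b, the receptor TACI, fell (320.1 to 371 CPM in NP and 234 to 292 CPM in HAMS; log2FC −0.35 ± 0.10, adjusted p = 0.04996) and lost its call without NP 1, 3, 4 or 5 or HAMS 4, 5 or 6 (adjusted p = 0.0698 to 0.167). The proapoptotic genes Bcl2l11 (68.6 to 103 CPM in NP and 109 to 186 CPM in HAMS; log2FC 0.86 ± 0.18, adjusted p = 0.015) and Bmf (51.6 to 60.9 CPM in NP and 67.6 to 84.4 CPM in HAMS; log2FC 0.45 ± 0.12, adjusted p = 0.046) rose. They were 2 of 15 Bcl2 family members tested, against 2.27% of all genes called higher. Bcl2l11 lost its call without NP 3 or 4 or HAMS 6 (adjusted p = 0.0514 to 0.0658). Bmf lost it without NP 1, 3, 4 or 5 or HAMS 1, 4 or 6 (adjusted p = 0.05003 to 0.152). The growth arrest genes Gadd45a (14.9 to 17.7 CPM in NP and 21.97 to 26.9 CPM in HAMS; log2FC 0.57 ± 0.10, adjusted p = 0.00562) and Cdkn1a (5.43 to 8.53 CPM in NP and 8.88 to 14.1 CPM in HAMS; log2FC 0.77 ± 0.17, adjusted p = 0.018) rose among 17 p53 targets. Cdkn1a did not pass without NP 3, 4 or 5 or HAMS 6 (adjusted p = 0.0571 to 0.0824). Bcl3, an atypical inhibitor of NF-kappaB, rose (55.2 to 70.8 CPM in NP and 96.5 to 144 CPM in HAMS; log2FC 0.85 ± 0.14, adjusted p = 0.00291) and was the single gene to pass of 18 on its list. Spib, an Ets factor of B cells, rose (852 to 986 CPM in NP and 1078 to 1311 CPM in HAMS; log2FC 0.41 ± 0.10, adjusted p = 0.023) but not without NP 3 or 4 or HAMS 1, 4 or 6 (adjusted p = 0.0527 to 0.0961).

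Among 18 interferon-gamma GTPase genes 2 fell and 0 rose, against 2.06% of all genes called lower. Gbp3, a guanylate-binding protein that interferon-gamma induces, was the first (57.8 to 60.1 CPM in NP and 39.7 to 51.05 CPM in HAMS; log2FC −0.41 ± 0.09, adjusted p = 0.015). The second carries the gene ID that M21 names Gbp2b and the deposited table names Gbp5 (57.5 to 66.9 CPM in NP and 37.97 to 46.5 CPM in HAMS; log2FC −0.56 ± 0.10, adjusted p = 0.00623), and was matched to the list by the deposited name. Of 33 genes of the type I interferon response only Stat2, which carries the interferon signal to the nucleus, passed, and it was lower in HAMS (188 to 241 CPM in NP and 154 to 176 CPM in HAMS; log2FC −0.42 ± 0.09, adjusted p = 0.014). Rfx5, which binds MHC class II promoters, fell (155 to 187 CPM in NP and 110.0 to 138 CPM in HAMS; log2FC −0.51 ± 0.12, adjusted p = 0.023). The other 16 tested genes of the class II list did not pass. Cd38, an ectoenzyme, fell by less (323 to 350.1 CPM in NP and 223 to 299.9 CPM in HAMS; log2FC −0.38 ± 0.10, adjusted p = 0.049). Pim3, a survival kinase (log2FC 0.39 ± 0.09, adjusted p = 0.022), and Max, the partner of Myc (log2FC 0.32 ± 0.08, adjusted p = 0.025), rose. Tob1, an antiproliferative factor related to Btg2, rose as well (log2FC 0.51 ± 0.14, adjusted p = 0.045). Gbp3 did not pass without HAMS 6 (adjusted p = 0.0615), nor Stat2 without NP 3 or 4 or HAMS 6 (adjusted p = 0.0597 to 0.0644). Rfx5 needed all but NP 1, NP 5 and HAMS 5 (adjusted p = 0.05297 to 0.08704), and so did Pim3 (adjusted p = 0.0549 to 0.0848). Cd38 did not pass without NP 1, 3, 4 or 5 or HAMS 1, 4 or 6 (adjusted p = 0.0635 to 0.162). Max did not pass without NP 3, 4 or 5 or HAMS 1 or 4 (adjusted p = 0.0535 to 0.0981), and Tob1 passed in none of the omissions (adjusted p = 0.0506 to 0.156).

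The counts for metabolic and clock lists stand beside the 4.33% of all genes called. Slc2a1, the glucose carrier GLUT1, rose (38.9 to 51.02 CPM in NP and 66.9 to 85.4 CPM in HAMS; log2FC 0.82 ± 0.13, adjusted p = 0.00268). Pdk1, which holds back pyruvate oxidation, fell (32.9 to 36.7 CPM in NP and 21.8 to 31.7 CPM in HAMS; log2FC −0.46 ± 0.10, adjusted p = 0.016). The other 18 of the 20 glycolysis genes tested did not pass. Cpt1a, which carries fatty acids to mitochondrial oxidation, fell (183 to 203 CPM in NP and 119 to 158 CPM in HAMS; log2FC −0.49 ± 0.11, adjusted p = 0.015). Sc5d (13.2 to 15.96 CPM in NP and 20.2 to 29.9 CPM in HAMS; log2FC 0.81 ± 0.15, adjusted p = 0.006898) and Cyp51 (11.9 to 16.6 CPM in NP and 19.6 to 24.3 CPM in HAMS; log2FC 0.74 ± 0.14, adjusted p = 0.00723), late enzymes of cholesterol synthesis, rose. They were 2 of 24 on their list. Among 17 clock genes Per1 and Bhlhe40 (log2FC 0.68 ± 0.13, adjusted p = 0.00921) rose and Per3 (log2FC −0.67 ± 0.14, adjusted p = 0.015) and Nr1d1 (log2FC −1.19 ± 0.31, adjusted p = 0.040) fell. Pdk1 lost its call without NP 3 or 4 or HAMS 6 (adjusted p = 0.0566 to 0.0608), and Cpt1a without NP 3 or HAMS 4 (adjusted p = 0.05098 to 0.0619). Per3 lost it without NP 3 or 4 or HAMS 4 or 6 (adjusted p = 0.0503 to 0.0677) and Nr1d1 without NP 1, 3 or 5 or HAMS 4, 5 or 6 (adjusted p = 0.05496 to 0.126).

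Of 10 receptors and carriers of short-chain fatty acids in the table, 7 were expressed highly enough to be tested and 0 passed edgeR's test, with 1 at an unadjusted p below 0.05, 1 called by DESeq2 and 0 by limma voom. Hcar2, the receptor for niacin and butyrate, stood at 1.105, 0.988, 0.975 and 0.676 CPM in NP 1, 3, 4 and 5 and 0.216, 0.0634, 0.204 and 0.0969 CPM in HAMS 1, 4, 5 and 6 and did not overlap between the diets, but did not pass (log2FC −2.63 ± 0.78, adjusted p = 0.070). Ffar2, a receptor for acetate and propionate, had a log2 fold change of −1.03 ± 0.59 (adjusted p = 0.365), and the carriers Slc16a1 (0.17 ± 0.34) and Slc16a3 (0.06 ± 0.37) likewise did not pass. Nor did any of 15 zinc-dependent and related histone deacetylases, of which Hdac9 had the smallest p (22.7 to 27.99 CPM in NP and 36.6 to 54.8 CPM in HAMS; log2FC 0.78 ± 0.25, adjusted p = 0.093). Of 18 acetyl-CoA enzymes 0 passed, and Acat2 had the smallest p (log2FC 0.35 ± 0.12, adjusted p = 0.109). Each of these 2 lists had 4 members at an unadjusted p below 0.05, 1 called by DESeq2 and 0 by limma voom. Of all 15021 genes, 2904 had an unadjusted p below 0.05 in edgeR's test, DESeq2 called 1264 and limma voom 726.

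**Figure D3:**
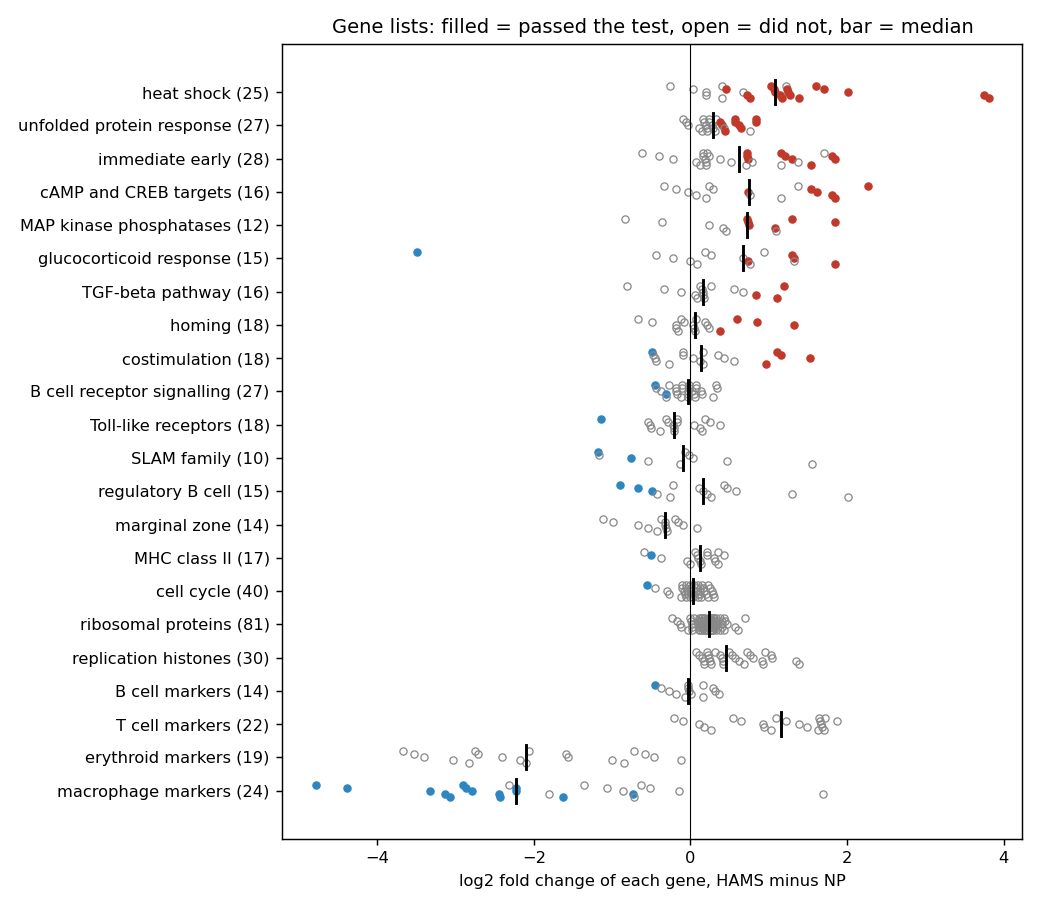
Log2 fold change (HAMS minus NP, x axis) of every tested member of 22 gene lists (number tested in brackets); filled points passed at an adjusted p below 0.05, open points did not, and a black bar marks the median. The heat shock, immediate early, CREB and phosphatase medians lie between 0.62 and 1.08, the macrophage median at −2.23, and the B cell marker median at −0.03.

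Some lists leaned one way without a member passing. All 30 tested replication-dependent histone genes had values above 0 (median 0.45), 75 of 81 cytosolic ribosomal protein genes did (median 0.23), and 13 of 14 marginal zone genes had values below 0 (median −0.32) and 0 passed in each. At an unadjusted p below 0.05 the counts were 7, 3 and 4, DESeq2 called 2, 0 and 0, and limma voom 1, 0 and 0. The same counts over all 15021 genes were 2904, 1264 and 726. The smallest p among marginal zone genes belonged to Asb2 (71.3, 86.4, 95.1 and 85.5 CPM in NP 1, 3, 4 and 5 and 57.7, 47.03, 39.1 and 11.4 CPM in HAMS 1, 4, 5 and 6; log2FC −1.12 ± 0.45, adjusted p = 0.184). The ribosomal protein median was 0.47 within libraries numbered 1 to 4 and −0.198 within those numbered 5 and 6, where the single NP library, NP 5, had the highest ribosomal sum of the NP libraries (30519 CPM, the others 25003 to 26210). Of 40 cell cycle genes only Tk1 passed, lower in HAMS, against 2.06% of all genes called lower. Its levels overlapped between the diets (32.3 to 48.8 CPM in NP and 22.6 to 33.2 CPM in HAMS, log2FC −0.55 ± 0.15, adjusted p = 0.049). It did not pass without NP 3, 4 or 5 or HAMS 4, 5 or 6 (adjusted p = 0.0705 to 0.154).

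Macrophage genes were lower in the HAMS preparations and supplied 8 of the 15 largest falls. Of 24 tested macrophage and monocyte markers 14 fell and 0 rose, against 2.06% of all genes called lower, and the median log2 fold change was −2.23. Levels did not overlap for 15 of the 24 in the lower direction, against 6.55% of all genes. Cd163, the haemoglobin scavenger receptor, measured 14.3, 8.91, 7.96 and 6.202 CPM in NP 1, 3, 4 and 5 and 0.674, 0.412, 0.467 and 0.194 CPM in HAMS 1, 4, 5 and 6 (log2FC −4.39 ± 0.57, adjusted p = 0.00105; GRCm38 chr6:124304656-124330527, plus strand). Mrc1, the mannose receptor, measured 19.8, 11.4, 10.2 and 8.02 CPM in NP 1, 3, 4 and 5 and 1.62, 1.05, 1.899 and 1.002 CPM in HAMS 1, 4, 5 and 6 (log2FC −3.14 ± 0.42, adjusted p = 0.00111). Vcam1, an adhesion molecule of red pulp macrophages, measured 66.3, 42.2, 32.1 and 24.5 CPM in NP 1, 3, 4 and 5 and 7.04, 3.68, 4.53 and 1.13 CPM in HAMS 1, 4, 5 and 6 (log2FC −3.32 ± 0.60, adjusted p = 0.00623). In bulk RNA, fewer cells of a type and less RNA per cell cannot be told apart.

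The other falls covered several macrophage functions. Iron handling was represented by Slc40a1, the iron exporter (16.5 to 35.4 CPM in NP and 1.23 to 4.69 CPM in HAMS; log2FC −3.07 ± 0.60, adjusted p = 0.00943). Hmox1, haem oxygenase, also fell (28.2 to 52.9 CPM in NP and 3.04 to 16.8 CPM in HAMS; log2FC −2.23 ± 0.55, adjusted p = 0.033). Spic, the factor that specifies red pulp macrophages and is also expressed by B cells, fell by less (23.9 to 28.3 CPM in NP and 12.99 to 17.6 CPM in HAMS; log2FC −0.74 ± 0.14, adjusted p = 0.00668). The complement chains C1qa, C1qb and C1qc fell by 2.43, 2.44 and 2.79 on the log2 scale, and the receptor kinase Axl, which clears dying cells, by 2.91 (9.79 to 25.3 CPM in NP and 0.872 to 4.099 CPM in HAMS). Outside the list, the 15 largest falls included Itgad, an integrin chain (11.9 to 23.3 CPM in NP and 1.42 to 3.78 CPM in HAMS; log2FC −2.88 ± 0.45, adjusted p = 0.00249), and Fcna, a ficolin (8.95 to 15.7 CPM in NP and 0.194 to 2.103 CPM in HAMS; log2FC −3.23 ± 0.68, adjusted p = 0.015). Clec4n, the lectin Dectin-2, was another (2.36 to 5.89 CPM in NP and 0.355 to 1.27 CPM in HAMS; log2FC −2.47 ± 0.60, adjusted p = 0.030).

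Several general myeloid markers did not pass. Adgre1, which encodes F4/80, stood at 25.4, 19.7, 16.5 and 12.9 CPM in NP 1, 3, 4 and 5 and 17.96, 17.7, 14.6 and 17.1 CPM in HAMS 1, 4, 5 and 6 (log2FC −0.14 ± 0.21, adjusted p = 0.752). Lyz2, lysozyme, stood at 247, 189, 151 and 92.99 CPM in NP 1, 3, 4 and 5 and 104, 185, 101 and 85.9 CPM in HAMS 1, 4, 5 and 6 (log2FC −0.51 ± 0.37, adjusted p = 0.474). Itgam, an integrin chain, ran from 12.8 to 21.6 CPM in NP and 10.1 to 13.98 CPM in HAMS (log2FC −0.63 ± 0.27, adjusted p = 0.218). Ly6c2, a monocyte marker, had a value above 0 without passing (0.244 to 0.522 CPM in NP and 0.584 to 2.13 CPM in HAMS; log2FC 1.69 ± 0.51, adjusted p = 0.074). The summed CPM of the 24 markers was 741, 623, 572 and 362 in NP 1, 3, 4 and 5 and 246, 356, 229 and 170 in HAMS 1, 4, 5 and 6. NP 5 and HAMS 4 were close. The median log2 fold change was −1.8 within libraries numbered 1 to 4 and −2.43 within those numbered 5 and 6, where 6 members passed, and 9 passed without NP 3. C1qb lost its call without NP 3 (adjusted p = 0.0547), and C1qa without NP 3 or 4 (adjusted p = 0.0539 to 0.05703). Clec4n lost it without NP 1, 3 or 4 or HAMS 4, 5 or 6 (adjusted p = 0.05702 to 0.09699). Slco2b1, an organic anion carrier, was at 0 in HAMS 6 (1.06 to 2.49 CPM in NP and 0 to 0.108 CPM in HAMS, adjusted p = 0.00445), and no other marker of the list was at 0 in any of the 8 libraries.

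**Figure D4:**
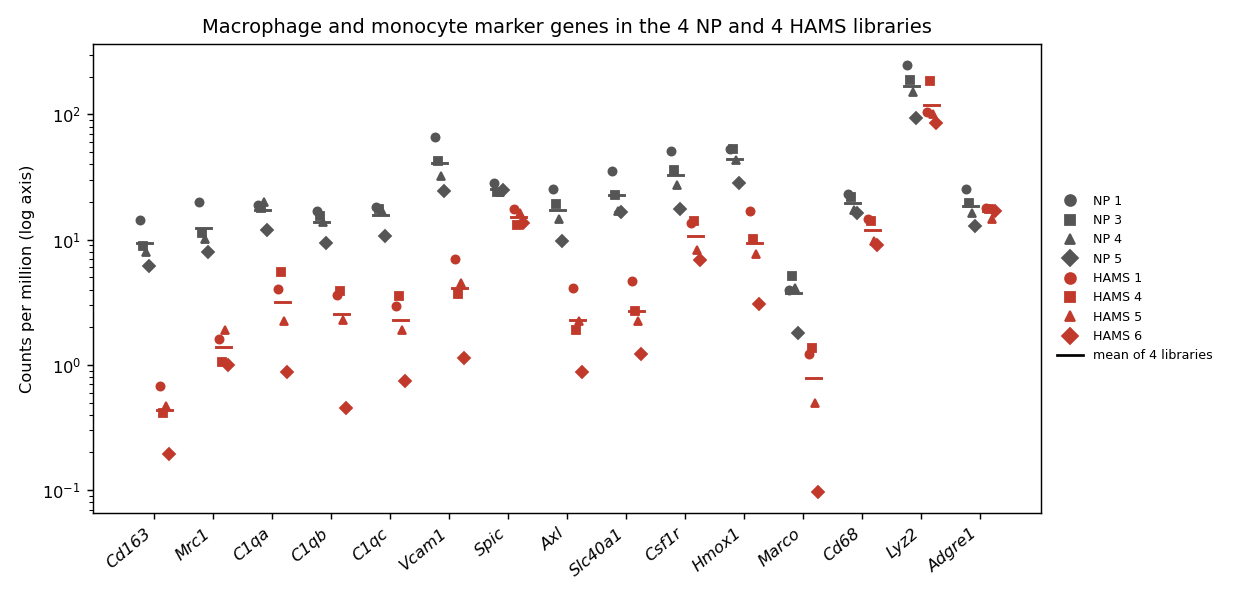
Level of 15 macrophage and monocyte markers in CPM (log axis) in each NP library (grey) and HAMS library (red), with a bar at the mean of 4. Cd163 lies between 6.20 and 14.3 CPM in NP and between 0.194 and 0.674 CPM in HAMS, whereas Adgre1 and Lyz2 overlap between the diets.

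Marker sums of other cells also differed between libraries, and their part in the results above was not tested. All 19 tested erythroid markers had values below 0 (median −2.10) and 0 passed edgeR's test, with 8 at an unadjusted p below 0.05, 2 called by DESeq2 and 0 by limma voom. Their summed CPM was 718, 2019, 595 and 483 in NP 1, 3, 4 and 5 and 422 to 481 in HAMS. Over all 15021 genes, 2904 had an unadjusted p below 0.05, DESeq2 called 1264 and limma voom 726. Tmcc2, Ypel4 and Slfn14, among the 15 largest falls, peaked in the same library, NP 3. Tmcc2 measured 12.5, 86.3, 17.1 and 3.85 CPM in NP 1, 3, 4 and 5 and 1.54, 0.824, 0.3798 and 0.291 CPM in HAMS 1, 4, 5 and 6 (log2FC −5.28 ± 1.18, adjusted p = 0.019) and did not pass without NP 3 or HAMS 4 or 6 (adjusted p = 0.0612 to 0.0771). Ypel4 ran from 0.653 to 17.7 CPM in NP and 0.0323 to 0.3803 CPM in HAMS (log2FC −5.15 ± 1.28, adjusted p = 0.033). Slfn14 ran from 0.839 to 10.4 CPM in NP and 0.162 to 0.666 CPM in HAMS (log2FC −3.22 ± 0.76, adjusted p = 0.026). Without NP 3 the log2 fold changes of Tmcc2, Ypel4 and Slfn14 were −3.85, −3.61 and −2.22. That of Tmcc2 was −5.91 without HAMS 1, and that of Ypel4 −5.91 without HAMS 4. Ypel4 and Slfn14 did not pass without NP 3 (adjusted p = 0.142 and 0.115), and both also failed to pass without HAMS 1, HAMS 4 or HAMS 6. So did Ypel4 without NP 4 or HAMS 5.

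T cell markers had values above 0 for 20 of 22 members (median 1.16), NK markers for 10 of 13 (median 1.23) and neutrophil markers for 14 of 16 (median 0.74). In each of these lists 0 members passed edgeR, DESeq2 or limma voom, and 3, 3 and 0 had an unadjusted p below 0.05. That held for 2904 of all 15021 genes. HAMS 6 held the most, with summed CPM of 404 for T cell, 36.2 for NK and 129 for neutrophil markers, and HAMS 5 the least, with 190, 15.2 and 9.41. The NP libraries held 205 to 260, 15.2 to 27.3 and 14.03 to 82.5 CPM. Platelet markers summed to 282 to 496 CPM in NP and 408 to 838 CPM in HAMS, and dendritic cell markers to 629 to 674 and 447 to 905 CPM. Values were above 0 for 12 of 14 platelet markers (median 0.34) and below 0 for 11 of 14 dendritic markers (median −0.49). In each of these lists 0 passed edgeR's test, DESeq2 called 1 and limma voom 0.

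Several of the largest rises belong to no list. B3gnt7, a glycosyltransferase that extends poly-N-acetyllactosamine chains, measured 12.9, 9.33, 9.803 and 14.7 CPM in NP 1, 3, 4 and 5 and 50.9, 124, 94.7 and 156 CPM in HAMS 1, 4, 5 and 6 (9.1-fold; log2FC 3.19 ± 0.54, adjusted p = 0.00445; GRCm38 chr1:86302832-86307305, plus strand). Gpr171, a G protein-coupled receptor, measured 89.8, 52.7, 66.7 and 95.2 CPM in NP 1, 3, 4 and 5 and 201, 272, 322 and 293 CPM in HAMS 1, 4, 5 and 6 (log2FC 1.84 ± 0.28, adjusted p = 0.00187). P2ry10, a receptor for lysophosphatidylserine, ran from 94.1 to 196 CPM in NP and 233 to 620.2 CPM in HAMS (log2FC 1.72 ± 0.40, adjusted p = 0.025). Cables1, a binding partner of cyclin-dependent kinases, ran from 1.59 to 4.63 CPM in NP and 6.15 to 43.6 CPM in HAMS (log2FC 2.74 ± 0.59, adjusted p = 0.016). Gfod1 ran from 5.74 to 11.1 CPM in NP and 13.2 to 49.2 CPM in HAMS (log2FC 1.84 ± 0.40, adjusted p = 0.016). HAMS 6 was the highest library for all but Gpr171. B3gnt7 and Gpr171 passed in each of the 8 omissions. P2ry10 did not pass without NP 3, 4 or 5 or HAMS 6 (adjusted p = 0.05705 to 0.0961). The same libraries decided Cables1 (adjusted p = 0.0531 to 0.0638) and Gfod1 (adjusted p = 0.0564 to 0.0663). The log2 fold change of Cables1 was 1.96 without HAMS 6, 1.27 within numbers 1 to 4 and 4.27 within numbers 5 and 6. That of Gfod1 was 0.84 and 2.86 within the same ranges.

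The acylated starches were set beside HAMS for the same genes. The 3 contrasts with NP share the NP libraries, and the tests of HAMSB or HAMSA against HAMS share the HAMS libraries, so values are given side by side. The genes were chosen for their values in HAMS, and the tests against HAMS are therefore a description. HAMSB differed from HAMS in 252 of 15021 genes (1.68%). Sik1 had log2 fold changes against NP of 1.61 in HAMS, 0.42 in HAMSA and −1.08 in HAMSB, and HAMSB differed from HAMS by −2.698 ± 0.31, adjusted p = 3.56e-04. Plaur had 1.099, 0.44 and −0.17 (−1.26 ± 0.11, adjusted p = 1.03e-04). Dusp1 had 1.85, 0.85 and −0.42 (−2.27 ± 0.25, adjusted p = 3.12e-04). The HAMSB values of Sik1, Plaur and Dusp1 did not pass against NP (adjusted p = 0.257, 0.913 and 0.868). For Hspa1b the values were 3.75, 2.85 and −0.96 (−4.71 ± 0.91, adjusted p = 0.013). For Dnaja1 they were 2.02, 1.19 and 0.08 (−1.93 ± 0.31, adjusted p = 0.00447). Neither HAMSA value passed against NP (adjusted p = 0.076 for Hspa1b and 0.0598 for Dnaja1). The HAMSA libraries were uneven, and the heat shock list summed to 5059, 4401.5, 4017 and 8376 CPM in HAMSA 1, 2, 3 and 6. The difference between HAMSB and HAMS did not pass for Cables1 (−1.51 ± 0.56, adjusted p = 0.232), Gfod1 (−1.42 ± 0.39, adjusted p = 0.094) or P2ry10 (−1.44 ± 0.40, adjusted p = 0.094).

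Genes that fell on HAMS were chosen in the same way. Slamf7 had −1.19 in HAMS, −0.76 in HAMSA and 0.01 in HAMSB, and HAMSB exceeded HAMS by 1.198 ± 0.13, adjusted p = 3.12e-04. Cd180 (0.99 ± 0.14, adjusted p = 0.001698), Bcor (0.903 ± 0.11, adjusted p = 5.50e-04) and Il12a (0.78 ± 0.13, adjusted p = 0.00646) also lay higher in HAMSB than in HAMS. Cd163 had −4.39, −2.15 and −3.42, and its difference between HAMSB and HAMS did not pass (0.98 ± 0.55, adjusted p = 0.462). C1qc had −2.79, −1.55 and −2.93 (−0.14 ± 0.48, adjusted p = 0.926). Vcam1 had −3.32, −1.995 and −2.98 (0.34 ± 0.57, adjusted p = 0.839). Against NP, Cd163 passed in HAMSA and HAMSB (adjusted p = 0.0495 and 0.030). C1qc passed in HAMSB (adjusted p = 0.041) but not in HAMSA (adjusted p = 0.081), and Vcam1 in neither HAMSA nor HAMSB (adjusted p = 0.071 and 0.089). The homing receptor Ccr7 had 0.84, 0.598 and 0.48 (−0.36 ± 0.11, adjusted p = 0.120).

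The differences between HAMSA and HAMS did not pass for Crem (−1.61 ± 0.31, adjusted p = 0.300), Dusp1 (−1.001 ± 0.25, adjusted p = 0.300), Hspa1a (−0.75 ± 0.76, adjusted p = 0.653), Slamf7 (0.42 ± 0.13, adjusted p = 0.316) or Cd163 (2.24 ± 0.56, adjusted p = 0.300). Nr4a1, Sik1 and Plaur shared the adjusted p of 0.300 of Crem, Dusp1 and Cd163, so that value says little about a single gene. A p that misses the threshold does not show that the plain and acetylated starches acted alike.

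**Figure D5:**
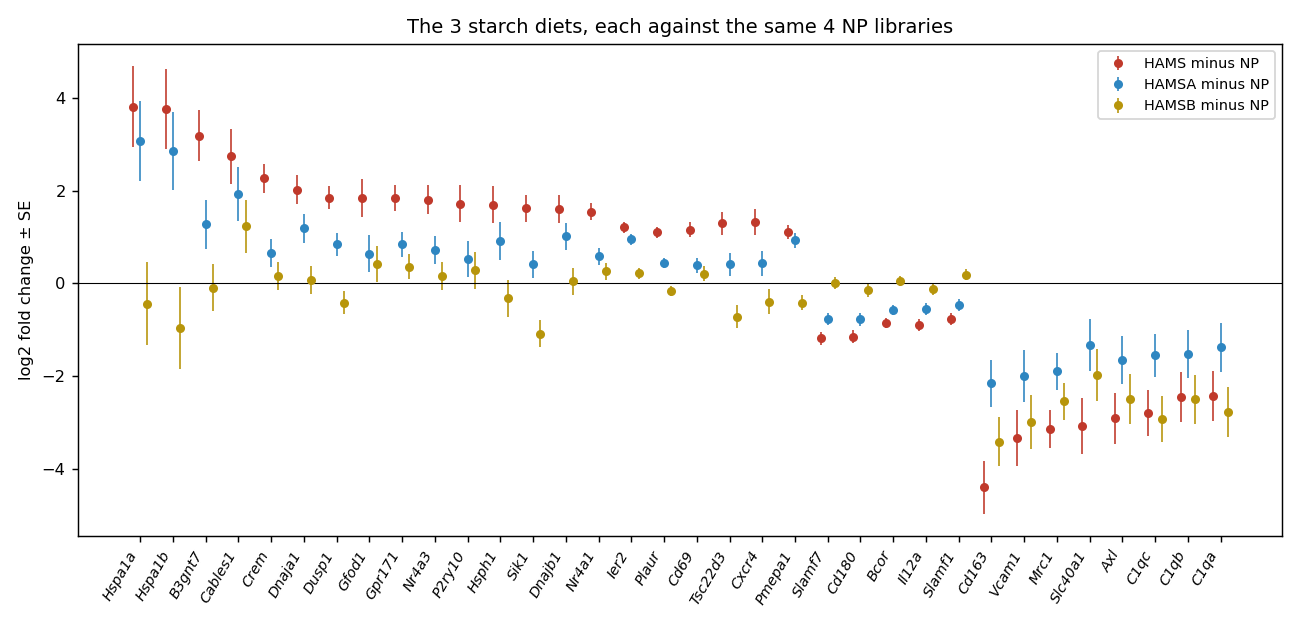
Log2 fold change ± SE against NP (y axis) of 34 genes in HAMS (red), HAMSA (blue) and HAMSB (ochre), all against the same 4 NP libraries. Dusp1, Sik1 and Plaur are above 0 in HAMS and below 0 in HAMSB, where none passed against NP (adjusted p = 0.868, 0.257 and 0.913). The macrophage genes on the right are below 0 in all 3 starch diets.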

How the data were processed

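Reads of 16 stranded poly(A) libraries were counted per gene by the authors, and the deposited values are raw counts from the reverse-stranded counting. The submitters' processing notes name STAR, featureCounts from Subread, edgeR and limma, while versions, genome build and annotation are not given in the sources used here. Deposited read counts per mapping category gave the shares of reads outside exons and of multimapping reads. Of 39179 gene IDs, 37607 matched GENCODE M21, which supplied names and coordinates. List members were matched by M21 name and, failing that, by the deposited name.

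Genes passing edgeR's filterByExpr (minimum count 10) were fitted with edgeR 4.0.16 in R 4.3.3, using TMM scaling, 1 mean per diet over all 16 libraries (12 residual degrees of freedom) and the contrast HAMS minus NP. Fold changes are fitted values. Precision follows from 31707731 or more counts in each HAMS and NP library and a median SE of 0.178 (log2). HAMSA 2, 3 and 6 were shallower, with 17453528, 15053965 and 16184519 counts. The members and lists were chosen with earlier results of these data known. Genes named by size are the 15 largest rises and the 15 largest falls among genes that passed, had a mean log2 CPM of at least 1 and did not overlap between the diets, and others are named from the lists. Results for some genes are not reported here. DESeq2 1.42.0 and limma 3.58.1 voom were among the alternatives. Promoter windows of 250 bases came from RefSeq. The fit was also run on simulated counts, and that outcome is not reported here.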

Additional observations from a re-analysis of the deposited data

Results flagged for a closer look

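In 12 of 216 groups of 4 libraries examined, the highest or lowest library stood apart by Dixon's criterion, which chance meets in about 1 in 20 groups. NP 1 accounted for several of them. Its Cd22 level was the lowest of the NP libraries at 2054 CPM (next 2569), and its Hspd1 level the highest at 136.0 CPM (next 112.3). Its summed unfolded protein response (5804 CPM, next 5485), neutrophil (82.47, next 22.39), NK (27.32, next 16.6) and T cell markers (260.3, next 213.5) were also the highest.

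NP 3 had the highest Tmcc2 (86.34 CPM, next 17.11) and Ypel4 (17.65, next 3.168), and the highest summed erythroid markers (2019, next 717.6). NP 5 had the lowest Slamf7 (20.4 CPM, next 25.83) and the highest Tgif1 (50.65, next 42.11), in each case nearest to HAMS. HAMS 1 had the lowest Nr4a3 of the HAMS libraries (7.955 CPM, next 15.86). The part of these libraries in the differences between diets was not tested beyond leaving each one out.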

How the results depend on the processing

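Of 96 named genes that passed, 52 passed in each of the 8 fits without a single library, and none changed sign under any alternative run. These genes were chosen for passing in the same libraries, and most did not overlap between the diets. The kept sign therefore follows largely from the choice and is no separate evidence. Without a single library the count of genes called ran from 235 to 703, with 135 to 370 higher and 99 to 333 lower. Library totals without TMM gave 225 higher and 573 lower. With DESeq2, 1264 genes were called, 658 higher and 606 lower. Adding each library's percentage of non-exonic reads to the model, 1157 were called, 534 higher and 623 lower. Within numbers 1 to 4 the counts were 1571, 845 and 726, and within numbers 5 and 6 they were 45, 25 and 20. How far the 2 ranges differed was not settled, since numbers 5 and 6 hold a single NP library. RLE scaling, other filters, limma voom, robust dispersion, leaving out immunoglobulin genes or fitting only the 2 diets gave 480 to 726 calls. The cause of these differences was not tested.

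The library numbers were not taken to pair the samples, since the labels do not say what they mark. The deviations of HAMS and NP libraries with the same number correlated at −0.0703, 0.0201 and −0.0053 for numbers 1, 4 and 5. None of these libraries correlated best with its own number. With a replicate block over all 16 libraries 378 genes were called, 182 higher and 196 lower. With a replicate block over numbers 1, 4 and 5 of the 2 diets alone the counts were 28, 5 and 23. In the block fit over all 16 libraries 7 heat shock, 4 unfolded protein response, 9 immediate early and 15 macrophage genes passed, and in the smaller one 0, 0, 2 and 10. Levels below about 1 CPM, as for Hspa1a in NP or Cd163 in HAMS, rest on few counts.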
